A study of Mus musculus with 4 samples.

Results

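Neutrophils were picked out of 4 single-cell libraries of transplanted mouse mammary tumours by the transcripts that each cell carried, and they made up 78 of 45220 cells. A cell was taken as a neutrophil when it had at least 50 unique molecular identifiers (UMIs, each standing for 1 captured transcript) of S100a8 and S100a9 together per 10000 UMIs. It also needed at least 1 UMI of Csf3r, Cxcr2 or Retnlg, fewer than 20 UMIs of the C1q genes and fewer than 10 of Krt8, Krt18, Tm4sf1 and Cdkn2a per 10000, and no UMI of Cd3e or Cd3g. The tumours were grown from Py8119, a mouse mammary carcinoma line of the MMTV-PyMT model, and the study compared 2 control tumours with 2 tumours carrying a Sema4d short hairpin RNA (shRNA), to ask about the part of the tumour cells' own semaphorin 4D. Both groups share the line and the transplantation. The labels do not give the host's strain, sex or age, the hairpin, the time of growth, or whether a library pooled several animals, so a p-value here measures the spread between these libraries, which may be technical. The labels call the cells tumour cells, while the libraries also hold host cells. Neutrophils are host cells, and the series' title places the knockdown in the tumour cells. Ly6c2 and Plac8 monocytes, the comparison class, were 587 cells.

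Neutrophils are short-lived granulocytes that leave the bone marrow under granulocyte colony-stimulating factor (read by Csf3r) and follow chemokines that bind Cxcr2. They carry antimicrobial proteins in granules made at successive steps of their maturation, and S100a8 and S100a9 form calprotectin, an abundant protein of their cytosol. In tumours they are known both as sources of inflammatory cytokines and chemokines and as cells that can restrain T cells. They hold little RNA, so droplet methods lose them easily.

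The 4 libraries held 10575 to 13173 cells and 83513906 to 119758159 UMIs, with a median of 5690 to 8180 UMIs per cell, and no deposited cell had fewer than 1000 UMIs. In cells past the tumour limit, Sema4d stood at 7.47 and 8.20 CPM (UMIs of the gene per 1000000 UMIs) in the control libraries and 4.71 and 6.55 CPM in the shRNA libraries, both of the latter being lower. The neutrophils lay close to the lower bound of the data. Their median was 1249.5 UMIs and 546 genes per cell, against 2649 UMIs and 1066 genes in the monocytes, and 58 of 78 neutrophils (74.4%) had fewer than 1500 UMIs, against 14.1% of monocytes. Together they held 118955 UMIs, of which control library 1 gave 59909, control library 2 gave 26225, shRNA library 1 gave 26821 and shRNA library 2 only 6000. The numbers of neutrophils that fell below 1000 UMIs in each tumour are not known, and the part of this bound in the shares was not tested.

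**Figure D1:**
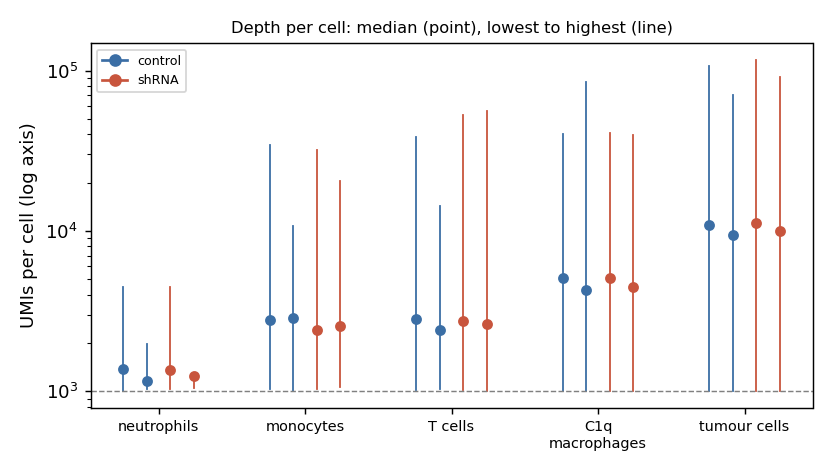
UMIs per cell (log axis) for 5 gated cell classes in each library, with the median as a point, the lowest and highest cell as the ends of the line and a dashed line at 1000 UMIs. Neutrophil medians lie between 1165 and 1378, just above the dashed line, and those of monocytes between 2414.5 and 2843.

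The S100 genes chose the cells, so their levels are a description. The median neutrophil had 390 UMIs of S100a8 and S100a9 per 10000 and the highest 3021. The lowest cells inside the limit had 50.9, 63.7 and 68.3, and the highest cells outside it that met every other condition had 37.9, 37.7 and 37.6. Of the neutrophils, 8 lay between 50 and 100, 37 between 100 and 500, and 33 at 500 or more. A further 11 cells met all conditions but the receptor UMI, and 10 neutrophils entered with exactly 1 such UMI. S100a8 was found in 0.485% of T cells, which should lack it, and S100a9 in 0.647% (median depth 2649 UMIs), against 1.87% and 1.02% of monocytes. The neutrophils, 78 of 45220 cells, held 64.8% and 59.8% of all S100a8 and S100a9 UMIs of the control libraries and 69.3% and 28.5% of those of the shRNA libraries.

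Markers that the rule did not use were those of neutrophils in nearly all of these cells. Of 15 further neutrophil markers, a median of 7 were detected per cell, 75 of 78 cells had at least 3, and none had 0. In the monocytes the median was 1, and 84 of 587 cells (14.3%) had at least 3. G0s2, an inhibitor of triglyceride breakdown, was found in 62 neutrophils, Mxd1, a Myc antagonist, in 67, the lectin Clec4d in 67, the decoy receptor Il1r2 in 61 and Hdc, which makes histamine, in 54. G0s2 was found in 0.404% of T cells and 1.02% of monocytes. Not all 15 markers were as exclusive, since at least 1 of them was found in 385 of 587 monocytes and 212 of 1237 T cells. The surface antigen Ly6g, which is used to sort mouse neutrophils, was nearly absent, with 1 UMI in control library 2 and 0 UMIs in the other libraries.

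Genes of granulocyte precursors were not detected. No UMI of Mpo, Elane, Prtn3, Ctsg or Ms4a3, which marrow precursors express, was found in any of the 78 cells (0 of 118955 UMIs, which allows up to 25.2 CPM). A UMI of the proliferation genes Mki67, Top2a or Stmn1 was found in 4. Markers of natural killer cells, dendritic cells, mast cells, eosinophils and red cells were at 0 UMIs, and B cell and platelet markers were each found in 1 cell. Of the T cell markers, Cd3d had 0 UMIs, while Cd3e and Cd3g were at 0 by the rule.

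Monocyte transcripts were present in some of the cells, and unevenly between libraries. A UMI of Ly6c2 or Plac8 was carried by 18 neutrophils, of which 8 were in control library 1, 1 in control library 2, 9 in shRNA library 1 and 0 in shRNA library 2. The 9 monocyte markers summed to 1519 and 229 CPM in the neutrophils of the control libraries and 7382 and 333 CPM in those of the shRNA libraries, with all 9 detected, against 8137 to 10421 CPM in monocytes. The 18 cells had a median of 7 of the 15 further neutrophil markers and the other 60 cells 6.5. Hdc was at 681 CPM in the 18 cells and 1544 CPM in the 60, and Lyz2, a lysozyme of myeloid cells, at 3460 and 474 CPM. Ms4a6c was at 817 CPM in the 18 cells and had 0 UMIs in the 60. The 18 cells had a median of 1477.5 UMIs and the 60 cells 1232.5. None of the 78 cells had more UMIs than the median cell of its library. That median includes tumour cells, whose own median was 10428 UMIs, so it cannot tell a doublet from a single cell. Whether the 18 cells are doublets, carry free RNA or express both sets of genes was not tested, and results that rest on them are given with and without them. Macrophage markers, 8 genes of which 7 were detected, summed to 1886 and 686 CPM in control and 783 and 333 CPM in shRNA neutrophils.

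**Figure D2:**
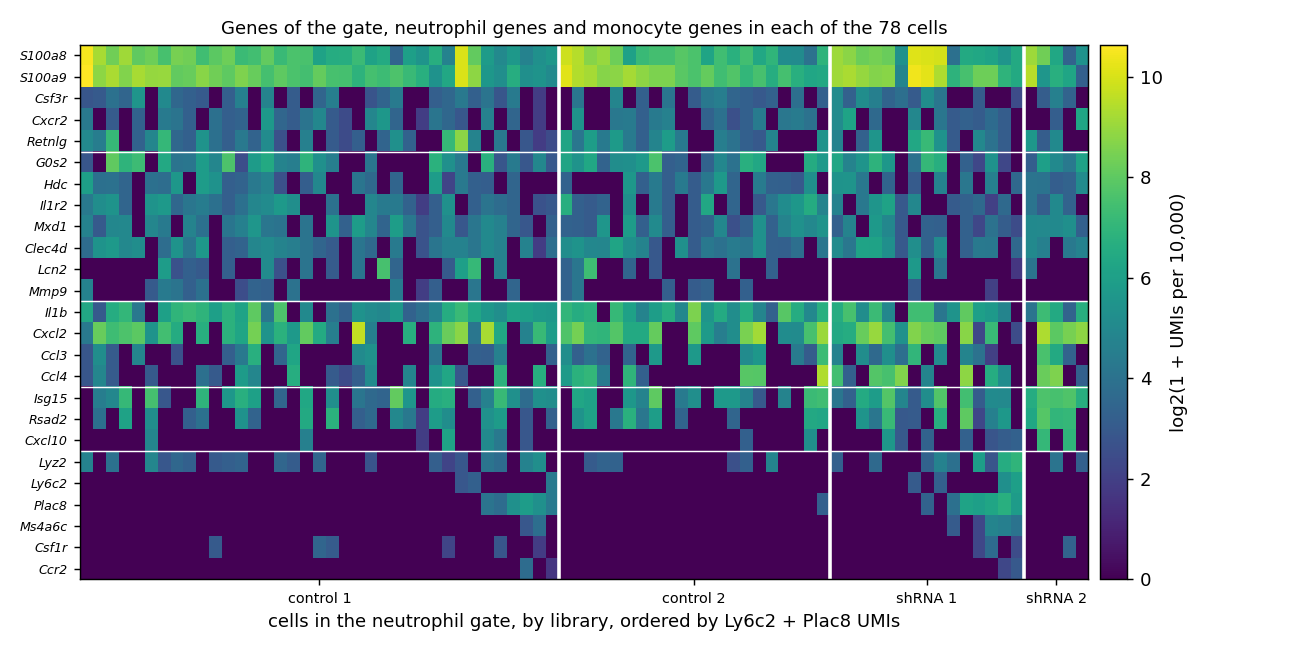
Each column is 1 of the 78 cells, grouped by library and ordered within it by UMIs of Ly6c2 and Plac8, each row is a gene, and the colour is log2(1 + UMIs per 10000). White lines part the rows into genes of the rule, neutrophil markers and granule genes, cytokines and chemokines, interferon-induced genes and monocyte genes, and the monocyte rows are filled mainly in 8 cells of control library 1 and 9 of shRNA library 1.

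Neutrophils were rarer in both shRNA libraries than in both control libraries. They were 37 of 10874 cells (0.340%, exact Clopper-Pearson 95% interval 0.240 to 0.469%) in control library 1 and 21 of 10598 (0.198%, 0.123 to 0.303%) in control library 2. In the shRNA tumours they were 15 of 10575 (0.142%, 0.0794 to 0.234%) and 5 of 13173 (0.0380%, 0.0123 to 0.0886%). The groups did not overlap, although the intervals of control library 2 and shRNA library 1 did, and the intervals cover counting error only. The mean was 0.269% ± 0.100 (SD, n = 2) in control and 0.0899% ± 0.0735 (SD, n = 2) in shRNA tumours, a ratio of 0.334. An exact two-sided permutation test gave p = 0.333, the smallest that 2 against 2 libraries allow, so the difference cannot pass a threshold of 0.05 in this design. The ratio was 0.141 without shRNA library 1 and 0.527 without shRNA library 2, and 0.208 without the 18 cells with monocyte UMIs.

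The monocytes did not separate the groups in this way, at 196 and 93 cells in control and 172 and 126 in shRNA libraries. C1q macrophages did, at 2793 of 10874 and 3768 of 10598 cells in control and 1344 of 10575 and 1910 of 13173 in shRNA libraries. A lower share was thus not particular to neutrophils. Neutrophils per monocyte came to 0.189 and 0.226 in control tumours, and to 0.0872 and 0.0397 after knockdown, a ratio of 0.306. All cells together, whatever their class, gave 43.7 and 28.4 CPM of S100a8 and S100a9 in control and 21.9 and 7.06 CPM in shRNA libraries, a value that uses the same genes as the rule but none of its limits. The gated cells hold most of these UMIs in 3 of the 4 libraries, so this value largely restates the cell counts.

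**Figure D3:**
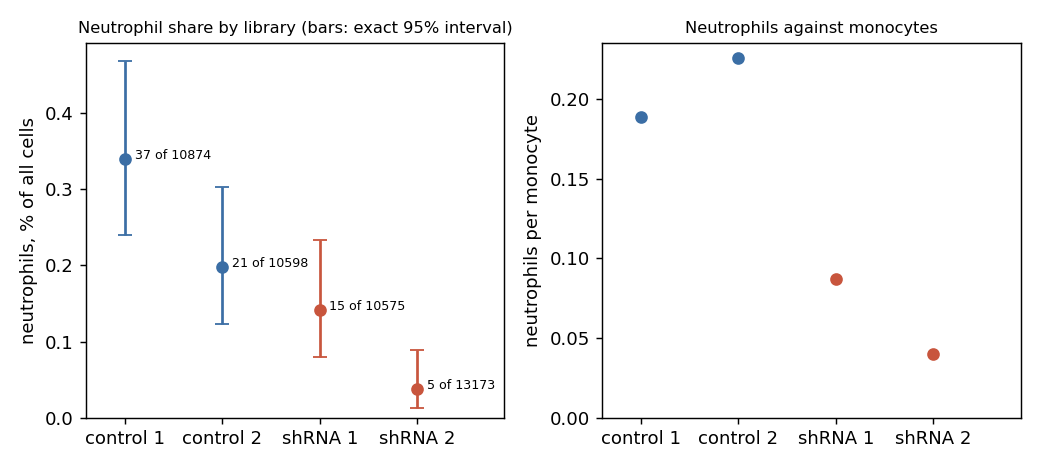
Left, neutrophils as a percentage of all cells in each library with the exact 95% interval and the cell counts, and right, neutrophils per monocyte. Both shRNA libraries lie below both control libraries in each panel.

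Chemokine, cytokine and interferon-induced transcripts were among the most abundant of the neutrophils. After Gm42418, which overlaps ribosomal RNA, and the S100 and ferritin genes, the chemokine Cxcl2 had the highest mean, at 19503 ± 9718 CPM (SD, n = 4), followed by Srgn, the proteoglycan core of granules, at 14526 ± 4198 CPM. Ccl4, Tyrobp, Il1b, Isg15 and Jun were also among the 20 genes of highest mean CPM, mitochondrially encoded and ribosomal protein genes left out (UMIs are not divided by gene length). Each library weighs equally in this mean, and the 5 cells of shRNA library 2 raised some values. Isg15 was at 15833 CPM there against 4290 to 5110 CPM in the other libraries, and Jun at 13167 against 3272 to 4461 CPM. Of the 78 cells, 72 had a UMI of Il1a or Il1b, 65 of Cxcl1, Cxcl2 or Cxcl3, 61 of 5 interferon-induced genes, 56 of Ccl3 or Ccl4 and 43 of 6 granule genes (Ltf, Camp, Ngp, Lcn2, Mmp8 and Mmp9). With each cell thinned to 1000 UMIs, the shares were 89.7% for Il1a or Il1b, 82.1% for the Cxcl genes, 66.7% for Ccl3 or Ccl4 and 73.1% for the interferon-induced genes. In monocytes thinned alike they were 34.4%, 22.1%, 29.1% and 61.7%. Granule and Ccl genes were not parted between cells: 29 cells had both, 14 granule genes only, 27 Ccl genes only and 8 neither.

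Neutrophils and monocytes were then compared on UMIs summed per library and class, with the library as a block and the genes of both rules left out. The classes were set by genes of the same cells, so the comparison describes what goes with the rule. A gene could also pass the count filter through 1 class alone, as Wfdc21 did through neutrophils and H2-DMb1 through monocytes. For such genes the direction follows from the filter, so the counts per list below describe only the members tested. In edgeR's quasi-likelihood test at a Benjamini-Hochberg adjusted p under 0.05, 290 of 2143 genes (13.5%) were higher in neutrophils and 338 (15.8%) lower. The median of all genes was -0.36 on the log2 scale. Size factors of the relative log expression kind moved it to -0.72 and the split to 228 higher and 613 lower, and DESeq2 to -0.78 with 205 and 439, so the balance of directions rests on the scaling, while the named groups below are read beside that median. Of the 628 genes called, none changed sign under any alternative tried that tested it. Calls fell to 177 higher and 118 lower without control library 1, to 116 and 30 without control library 2, to 233 and 194 without shRNA library 1 and to 218 lower without shRNA library 2, which left 351 higher. Without the 18 cells with monocyte UMIs they were 283 and 310.

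Of the 15 genes highest in neutrophils by the naming rule, all were above every monocyte sum in each of the 4 libraries, as were 14.8% of all genes tested. G0s2 was at 3822 and 4576 CPM in control and 3281 and 3833 CPM in shRNA neutrophils, and between 0 and 10.4 CPM in monocytes (log2 difference 9.59, SE 0.66, adjusted p = 4.35e-44 in edgeR). Hdc was at 1235 and 1373 CPM in control and 1193 and 1667 CPM in shRNA neutrophils, and at most 12.9 CPM in monocytes (7.19, SE 0.49, edgeR adjusted p = 1.46e-45). Both genes thus varied little among the libraries and were near 0 in the monocytes.

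Lcn2, the granule protein that binds bacterial siderophores, was at 1252 and 1182 CPM in control and 373 and 333 CPM in shRNA neutrophils, and at most 4.29 CPM in monocytes (7.99, SE 0.60, edgeR adjusted p = 6.46e-38). Wfdc21, of the whey acidic protein family, was at 434 and 496 against 298 and 333 CPM in control and shRNA neutrophils and had 0 UMIs in monocytes, at least 268-fold higher against 3 UMIs over all monocytes. Il1f9, an interleukin 1 family cytokine (IL-36 gamma), had 63 UMIs in neutrophils and 1 in monocytes, a ratio of 1036 with a counting interval of 179 to 41545. The other genes of the 15 were Ankrd33b, Hcar2 (a receptor for nicotinic acid and beta-hydroxybutyrate), Il1r2, Cxcl3, H2-Q10, Asprv1, Sh2d3c, Osgin1, Cxcl2 and Cass4, with log2 differences from 4.74 for Cass4 to 7.52 for H2-Q10. H2-Q10 is a class I gene with close copies, so its reads are uncertain.

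The genes named as lowest, of which 9 are described here, had at most 4 UMIs each in all neutrophils together. Ccl2, which draws monocytes through Ccr2, was at 1327 and 1133 CPM in control and 1214 and 500 CPM in shRNA monocytes, and had 3 UMIs in all neutrophils, a ratio of 42.4 (14.5 to 206, counting error only). Fcgr1, the high-affinity IgG receptor, was at 373 to 608 CPM in monocytes and 0 to 38.1 CPM in neutrophils (log2 difference -3.94, SE 0.65, edgeR adjusted p = 4.05e-08). H2-DMb1 had 0 UMIs in neutrophils and 540 in monocytes, at least 11-fold lower against 3 UMIs over all neutrophils. Cxcl9, Pid1, Cxcl16, Pycard, Rgs1 and Ifi205 were the others described.

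**Figure D4:**
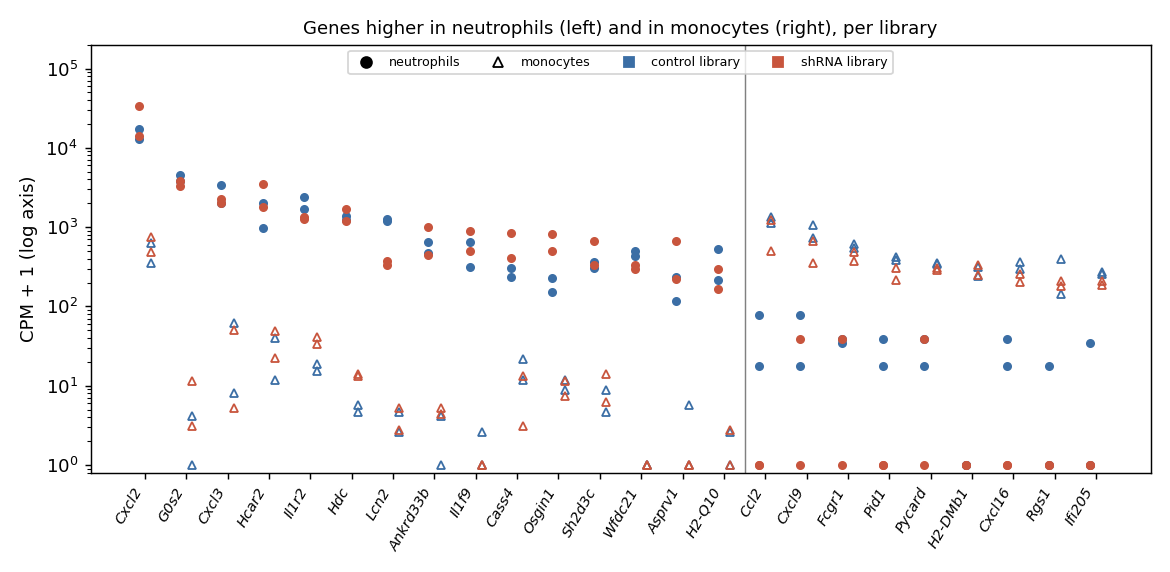
CPM + 1 (log axis) of the 15 genes named as higher in neutrophils and 9 named as higher in monocytes, 1 point per library, with filled circles for neutrophils, open triangles for monocytes, blue for control and red for shRNA libraries. In every gene shown the points of the 2 classes do not overlap, and both groups of tumours are on the same side.

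Chemokines were called in both directions. Of 12 tested, 5 were higher in neutrophils and 6 lower (median -0.95), against 13.5% and 15.8% of all genes tested. Those higher were Cxcl2 and Cxcl3, which bind Cxcr2 and attract neutrophils, together with Ccl3, Ccl4 and Ccl6. Those lower were Ccl2, Ccl7, Ccl9, Ccl5, Cxcl9 and Cxcl16, which are known to attract monocytes or lymphocytes. The counts were 5 and 6 under the other scalings and without the 18 cells, and 4 and 5 without control library 2. Cxcl2 was at 12853 and 17121 CPM in control and 14205 and 33833 CPM in shRNA neutrophils, against 353 to 757 CPM in monocytes (5.01, SE 0.50, edgeR adjusted p = 3.85e-21). It was found in 65 neutrophils, 30.5% of monocytes and 2.10% of T cells. Cxcl3 was at 2036 and 3394 CPM in control and 2237 and 2000 CPM in shRNA neutrophils, but in only 31 cells. Ccl4 was at 2237 and 7245 CPM in control and 8613 and 14500 CPM in shRNA neutrophils, and T cells, at 1931 ± 322 CPM (SD, n = 4), also made it. Cxcl1 had 2 UMIs and Cxcl5 none in the neutrophils.

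Cxcl2 and Cxcl3 lie near each other on chromosome 5, and are shown here with the start of S100a9, the S100 gene of highest level, because they are the chemokines among the 15 genes named as highest in neutrophils. The sequences are RefSeq's, GRCm38.p6, and run 5′ to 3′ on the strand of the gene from 250 to 31 bases before its RefSeq start. Capitals mark matches on either strand to an NF-kB type motif (GGGNN followed directly by TTTCC) or, in S100a9, to a C/EBP type motif (TTGCNNAA).
Cxcl2, chr5:90903649-90903868, plus strand: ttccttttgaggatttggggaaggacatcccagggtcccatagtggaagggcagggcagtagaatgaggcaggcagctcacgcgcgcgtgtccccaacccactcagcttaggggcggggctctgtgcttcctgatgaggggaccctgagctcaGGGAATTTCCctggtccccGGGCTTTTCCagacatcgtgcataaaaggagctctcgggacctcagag
Cxcl3, chr5:90785851-90786070, plus strand: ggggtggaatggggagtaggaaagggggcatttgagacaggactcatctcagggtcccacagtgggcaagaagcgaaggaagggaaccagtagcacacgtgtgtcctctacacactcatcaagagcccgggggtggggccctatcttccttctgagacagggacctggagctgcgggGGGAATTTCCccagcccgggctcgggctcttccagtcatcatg
S100a9, chr3:90695752-90695971, minus strand: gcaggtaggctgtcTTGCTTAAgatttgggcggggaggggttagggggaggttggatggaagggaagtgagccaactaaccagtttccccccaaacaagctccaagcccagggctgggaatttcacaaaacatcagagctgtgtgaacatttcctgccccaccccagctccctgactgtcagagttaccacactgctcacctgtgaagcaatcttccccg
The NF-kB type match starts 97 and 78 bases before the start in Cxcl2 and 73 bases before it in Cxcl3, and 1.17% of 32851 mouse promoter windows of the same length hold one. The C/EBP type match of S100a9 lies 236 bases before its start, and 8.78% of windows hold one. Of the 15 named genes, 13 had a window in the RefSeq table, of which 2 (these chemokines) held the NF-kB type motif and 1 (Lcn2) the C/EBP type motif. Such a match is a description of letters and not a shown binding site.

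With all libraries and cells, cytokines were the list with the highest median apart from the neutrophil markers. The list of genes linked to suppression, described below, was higher without control library 1 (2.89 against 2.71) and without control library 2 (2.63 against 2.16). Of 18 listed, 8 were tested, and 6 were higher in neutrophils and 0 lower (median 3.15), against 13.5% and 15.8% of all genes tested. Members nearly absent from monocytes, such as Il1f9, entered the test through neutrophils alone. Without control libraries 1 and 2, 6 and 5 were higher. Il1b was at 6343 and 8961 CPM in control and 6860 and 7667 CPM in shRNA neutrophils, against 431 to 896 CPM in monocytes (3.46, SE 0.47, edgeR adjusted p = 1.39e-11), and was found in 72 of 78 neutrophils and 0.566% of T cells. Il1rn, the antagonist of its receptor, was also higher (1.85, SE 0.40, edgeR adjusted p = 5.76e-05), as were Il1f9, Csf1, Il15 and Osm. Tnf, at 0 to 153 CPM in neutrophils and 51.5 to 140 CPM in monocytes, did not pass (adjusted p = 0.954).

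Granule genes were called in both directions. Over all genes tested, 13.5% were higher and 15.8% lower. Of 11 tested members of the specific and gelatinase granule list, 5 were higher (Lcn2, Pglyrp1, Slpi, Hp and Adam8) and 3 lower (Arg1, Cybb and Chil3), with a median of 0.44, and 3 were higher without control library 2. Slpi, a protease inhibitor, was at 2137 and 1296 CPM in control and 1641 and 2667 CPM in shRNA neutrophils against 108 to 282 CPM in monocytes (3.29, SE 0.44, edgeR adjusted p = 4.25e-12). Camp had 0 UMIs, and Ltf and Ngp 1 each, in the neutrophils. Mmp9, the gelatinase, had 35 UMIs in 23 cells, and at 434 and 267 against 74.6 and 0 CPM in control and shRNA libraries was too sparse to be tested. Of 8 NADPH oxidase genes, Rac2 was higher, Cybb and Rap1a lower and 5 did not pass (median -0.14). The share called higher in this list was close to that over all genes. Cybb, the catalytic subunit, was at 0 to 224 CPM in neutrophils and 410 to 626 CPM in monocytes, and Rac2 no longer passed under the other scalings or when any library but shRNA library 2 was left out.

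Receptors of the neutrophil's environment followed, and their counts stand beside 13.5% higher and 15.8% lower over all genes tested. Of 12 chemoattractant and related receptors tested, Il1r2, Il1rap, C5ar1, Ptafr, Ccr1, Ccrl2 and Cxcr4 were higher and C3ar1 lower (median 1.75), with 4 higher without control library 2. Of 17 pattern recognition and Fc receptors, 7 were higher and 2 lower (median 0.78), and 4 were higher without either control library. Clec4d and Clec4e, lectins that read mycobacterial and dead-cell ligands, were at 1753 to 2250 and 500 to 1044 CPM in neutrophils against 148 to 289 and 68.6 to 216 CPM in monocytes. Cd14, a co-receptor for lipopolysaccharide, was also higher (1.69, SE 0.44, edgeR adjusted p = 0.00128), whereas Fcgr3, Fcgr4 and Tlr2 did not pass. Of 14 genes of colony-stimulating factor signalling and survival, Socs3, Mcl1, Pim1, Bcl2l1 and Csf2rb were higher and 0 lower (median 0.88), of which 1 passed without control library 1 and 0 without control library 2.

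Among those tested, genes linked to suppression by myeloid cells were higher in neutrophils with 2 exceptions. Of 21 listed, 12 were tested, and 10 were higher and 2 lower (median 2.92), against 13.5% and 15.8% of all genes tested. Wfdc21, with 0 UMIs in monocytes, entered the test through neutrophils alone. The counts were 9 and 2 without control library 1 and 9 and 1 without control library 2. Irg1, which makes itaconate, was at 1569 and 2250 CPM in control and 2759 and 3000 CPM in shRNA neutrophils against 142 to 280 CPM in monocytes. Wfdc17 (2.90) and Arg2, the mitochondrial arginase (4.55), Entpd1, which breaks down extracellular ATP (2.67), and Ptgs2, which makes prostaglandins (2.97), were likewise higher on the log2 scale. The cytosolic arginase Arg1 was lower, at 701 and 38.1 CPM in control neutrophils and 0 in both shRNA sums, with 55.8% of its UMIs in 1 cell. Of 20 genes linked to tumour or aged neutrophils, 8 were higher and 2 lower (median 0.37), with 5 lower under both other scalings and 3 higher without control library 2. Cd274, the ligand PD-L1, was at 651 and 686 CPM in control and 559 and 2333 CPM in shRNA neutrophils against 135 to 291 CPM in monocytes (1.85, SE 0.38, edgeR adjusted p = 1.67e-05). Siglecf, a surface marker of some tumour neutrophils, and Tnfrsf10b had 0 UMIs, and Vegfa had 3 UMIs in 1 cell.

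Interferon-induced genes were more often higher than lower in neutrophils. Of 27 tested, 12 were higher and 3 lower (median 0.67), against 13.5% and 15.8% of all genes tested. Lower calls were thus no more frequent in this list than over all genes. The counts were 9 and 7 by relative log expression factors, 9 and 5 in DESeq2 and 6 and 0 without control library 2. Rsad2, or viperin, was at 1636 and 2326 CPM in control and 3281 and 11500 CPM in shRNA neutrophils against 211 to 716 CPM in monocytes (3.20, SE 0.49, edgeR adjusted p = 1.66e-09). Slfn4, Ifit1, Isg20, Oasl1, Oasl2 and Isg15 were also higher, while Bst2, Mx1 and Xaf1 were lower. Ifitm3, at 2333 to 4474 CPM in neutrophils and 4712 to 5258 CPM in monocytes, did not pass (adjusted p = 0.147).

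MHC class II genes were lower in every member tested, whereas 15.8% of all genes tested were lower. All 6 genes tested (Cd74, H2-Ab1, H2-Aa, H2-Eb1, H2-DMa and H2-DMb1) were lower in neutrophils (median -3.22, the same with H2-DMb1 at its bound), also under both other scalings, and 5 were without either control library. Cd74, the invariant chain, was at 250 and 343 CPM in control and 447 and 0 CPM in shRNA neutrophils, against 2324 to 3791 CPM in monocytes (-3.28, SE 0.52, edgeR adjusted p = 1.04e-08). Of 10 tested members of the list of class I and antigen presentation genes, 0 were higher and only Psmb9 was lower. H2-Q10, named above as higher in neutrophils, was not in that list. Lower calls in the list were no more frequent than over all genes. By relative log expression factors 3 were lower (Psmb8, Psmb9 and Tap2), as were 3 in DESeq2 (B2m, Psmb8 and Psmb9). B2m was at 1983 to 3132 CPM in neutrophils and 3794 to 4332 CPM in monocytes (adjusted p = 0.23).

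Regulators of transcription and stress were also compared, and their counts stand beside 13.5% higher and 15.8% lower over all genes tested. Of 20 transcription factors and feedback regulators of neutrophil development, 11 were higher and Klf4, a monocyte factor, lower (median 1.19), with 4 and 2 higher without control libraries 1 and 2. Mxd1 was at 1686 and 2059 CPM in control and 1119 and 2833 CPM in shRNA neutrophils against 77.2 to 167 CPM in monocytes (3.75, SE 0.44, edgeR adjusted p = 6.77e-16), and Ets2, Zfp36, Fosl2 and Junb were among the others. The precursor factors Cebpe and Gfi1 had 0 UMIs in neutrophils. Of 16 immediate early and heat shock genes, 8 were higher and 0 lower (median 1.17), with 2 and 1 without control libraries 1 and 2. Egr1, at 1402 to 3012 CPM against 283 to 476 CPM, was one of them, and Fos (adjusted p = 0.0535) and Hspa1a (0.447) were not. The tissue was digested at 37 °C, and the part of digestion in these genes was not tested. Of 7 integrated stress response genes, 5 were higher, Ddit3, Ppp1r15a, Xbp1, Atf3 and Ddit4 (median 1.58), with 1 without control library 2.

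Within neutrophils, the shRNA tumours differed from control tumours in few genes, and 8 of the 9 that passed were mitochondrially encoded. Of 430 genes with enough UMIs, edgeR called 0 higher and 9 lower in shRNA tumours (2.09%), and 27 had an unadjusted p under 0.05. DESeq2 called 0 higher and 8 lower. The 9 were mt-Co1, mt-Atp6, mt-Cytb, mt-Nd1, mt-Nd5, mt-Nd4, mt-Co3 and mt-Co2, which encode subunits of the respiratory chain and of ATP synthase, and Gm26870. mt-Co1 was at 8713 and 17655 CPM in control and 1193 and 1833 CPM in shRNA neutrophils, with no overlap between groups (log2 difference -3.33, SE 0.55, edgeR adjusted p = 0.000587).

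Mitochondrially encoded RNA was 3.26% and 5.70% of neutrophil UMIs in control and 0.481% and 0.900% in shRNA tumours. The same direction was seen in every other class, with 1.89% and 1.90% against 0.573% and 0.739% in monocytes, 1.15% in each control library against 0.281% and 0.454% in T cells, 1.39% and 1.37% against 0.531% and 0.627% in C1q macrophages, and 0.710% and 0.670% against 0.301% and 0.401% in tumour cells. Gm26870, a long noncoding RNA on chromosome 9, was also lower in the shRNA libraries of all these classes, and 67.4% of its neutrophil UMIs lay in 1 cell. No mitochondrial gene passed the test of a different shRNA effect in neutrophils and monocytes with all 78 cells, whereas mt-Co1 passed it without the 18 cells with monocyte UMIs. The calls rested on the cells and libraries kept: 2 (mt-Co1 and mt-Atp6) were made with at least 2 receptor UMIs per cell and again without control library 1, and 0 without shRNA library 1 or without the 18 cells with monocyte UMIs. Without control library 2 the calls were Gm26870 and Gm10800, with no mitochondrial gene. Without shRNA library 2 there were 12 lower, 10 of them mitochondrial, and 6 higher, Crip1, Gngt2, Ly6c2, Lyz2, Ms4a6c and Plac8. mt-Co1 had a log2 difference of -3.88 without the 18 cells (adjusted p = 0.0519) and -3.12 without shRNA library 1 (adjusted p = 0.496).

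**Figure D5:**
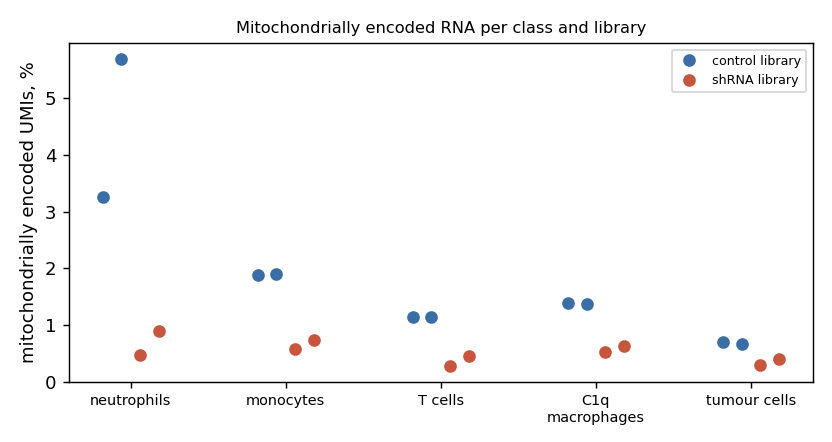
Mitochondrially encoded UMIs as a percentage of all UMIs of a class, 1 point per library, for 5 classes. Both shRNA libraries lie below both control libraries in all 5, and the control neutrophils, at 3.26% and 5.70%, are the highest points.

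No nuclear gene of the neutrophil lists passed between control and shRNA tumours with all 78 cells in edgeR when the libraries were not paired by number. Interferon-induced genes had 13 members tested, of which 12 were above 0 (median 0.50 on the log2 scale, against 0.02 over all 430 genes) and 0 passed. Rsad2, with values given above, had a log2 difference of 1.72 (SE 0.58, adjusted p = 0.173), and Isg15 was at 4290 and 5110 CPM in control and 4474 and 15833 CPM in shRNA neutrophils (adjusted p = 0.993). The 5 cells of shRNA library 2 set the upper values: all 5 had Isg15 and 4 had Rsad2, and without them the difference of Rsad2 was 0.56. With cells that had a Csf1r or Ccr2 UMI left out, Rsad2, Cxcl10 and Osgin1 passed as higher in shRNA tumours, and Rsad2 alone passed in cells with 300 or more genes and no more than 20% mitochondrial UMIs.

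Over their tested members, the granule and receptor lists had no shared direction between the groups. Of 7 specific and gelatinase granule genes tested, 3 were above 0 (median -0.08), as were 3 of 6 chemoattractant receptors (0.04) and 5 of 11 pattern recognition and Fc receptors (-0.07), and 0 passed. Lcn2 differed by -1.89 (SE 0.70, adjusted p = 0.265), and Trem1, which amplifies inflammatory signals, was at 467 and 648 CPM in control and 112 and 0 CPM in shRNA neutrophils (-2.71, SE 0.90, adjusted p = 0.173). A UMI of the 6 granule genes counted above was found in 26 of 37 and 11 of 21 neutrophils of the control libraries. In the shRNA libraries it was found in 4 of 15 and 2 of 5, and this difference was not tested. Groups that did not overlap were common among the 430 genes (31.4%), so such a pattern is close to the background here. Lyz2 was at 801 and 305 CPM in control and 3989 and 500 CPM in shRNA neutrophils (adjusted p = 0.287), the high value being that of shRNA library 1, where 9 of 15 cells carried monocyte UMIs.

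The targeted gene itself was sparse. Sema4d (chromosome 13, 51685529 to 51793747, GRCm38) was found in 18 neutrophils with 28 UMIs, at 150 and 153 CPM in control and 410 and 667 CPM in shRNA neutrophils, from 9, 4, 11 and 4 UMIs. The shRNA values were the higher ones, but the difference did not pass (1.51, SE 0.93, adjusted p = 0.993), and the test of a different effect in monocytes did not pass either (2.19, SE 0.72, adjusted p = 0.348 in edgeR). Of its receptors, Plxnb2 had 2 UMIs and Plxnb1 and Cd72 had 0 UMIs in neutrophils.

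The shRNA effect differed between neutrophils and monocytes for 1 gene of 424 tested (0.236%), with 25 at an unadjusted p under 0.05. This was Ifitm1 (chromosome 7, 140967221 to 140969825, GRCm38), an interferon-induced membrane protein that limits viral entry. Ifitm1 was at 1402 and 2021 CPM in control and 783 and 500 CPM in shRNA neutrophils, and at 42.6 and 75.6 CPM in control and 133 and 152 CPM in shRNA monocytes. The groups did not overlap in either class and the directions were opposite (difference of log2 effects -2.66, SE 0.57, edgeR adjusted p = 0.0381). Neutrophil sums did not overlap between groups in 31.4% of 430 genes, and the share for monocytes was not counted. The 500 CPM of shRNA library 2 was 3 UMIs. Within neutrophils alone it did not pass (-1.45, SE 0.70, adjusted p = 0.751). The call was lost without control library 1 (adjusted p = 0.777), control library 2 (0.861) or shRNA library 2 (0.0582), and held without the 18 cells (0.00175). Without those 18 cells, 6 genes passed as higher (Ccl4, Cited2, Cxcl10, Ifit1, Rsad2 and Slc15a3) and 5 as lower (Adgre5, Ifitm1, Osm, Rpl12 and mt-Co1) in the same test, which rests on 6 and 5 neutrophils in the shRNA libraries.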

How the data were processed

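Cells of 4 tumours (2 control, 2 Sema4d shRNA) were profiled with the DNBelab C Series droplet kit, per the labels' protocols. The authors deposited raw UMI counts per gene and cell, with no normalization, written by PISA 1.0 per the file headers. STAR 2.5.1b and the builds GRCh38 and mm10 are named in the submitters' processing notes. For annotation, cell calling and strand, the step is not given in the sources used here. The files name cells by running numbers, so shared barcodes could not be counted. No doublet caller was run.

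The rule was applied to all 45220 deposited cells. The members, gene lists and monocyte rule were chosen with earlier results of these data known. Monocytes had UMIs of Ly6c2 and of Plac8 (at least 5 per 10000 together), of Csf1r or Ccr2, and met the C1q, tumour and Cd3 limits, with no UMI of Ncr1, Klrb1c or Siglech. A cell that met the neutrophil rule was counted as a neutrophil and not as a monocyte, whatever its monocyte UMIs. In shRNA library 1, a cell so counted had 28 UMIs of Ly6c2, 25 of Plac8, 2 of Csf1r and 3 of Ccr2. T cells had at least 2 Cd3e or Cd3g UMIs under the same limits. Counts were summed per library and class and compared by edgeR 4.0.16, under R 4.3.3 with limma 3.58.1 (filterByExpr, TMM, robust quasi-likelihood, Benjamini-Hochberg 0.05 over all genes), with DESeq2 1.42.0 as an alternative. CPM is UMIs of the gene per 1000000 UMIs of the sum. The interaction was tested over genes that passed the filter in the neutrophil sums, a limit set after a first simulation. Counts were simulated with 200 genes changed by 2 on the log2 scale, of 430, 2155 and 430 genes. Of the changed genes, 89.5% were recovered for shRNA against control, 77% for neutrophils against monocytes and 68% for the interaction. The dispersion (spread between libraries) was set at 0.05 and not taken from these data. These shares are therefore not the power of the real tests, where Trem1 at -2.71 (SE 0.90) did not pass between groups. A count of 0 was bounded by 3 UMIs. Named genes were the 20 most abundant (mitochondrially encoded and ribosomal protein genes left out), those called between groups (10 at most in each direction), the 15 highest and 10 lowest against monocytes at a mean of at least 200 CPM, and list members. Coordinates are GRCm38 (GENCODE M21, 375 of 377 named genes matched by symbol), promoters RefSeq. Alternatives covered the limits of the rule, scaling, filter, tool, denominator and left-out libraries. Results on some genes are not reported here.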

Additional observations from a re-analysis of the deposited data

Results flagged for a closer look

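Ifitm1 stood out because its shRNA effect differed between neutrophils and monocytes by a test of the difference itself, at -2.66 on the log2 scale (SE 0.57, edgeR adjusted p = 0.0381). In neutrophils both knockdown values lay below both control values, and in monocytes above them. These are the values that the test itself used, and 31.4% of 430 genes had neutrophil sums without overlap between groups. Over the alternatives tried, the difference ranged from -3.74 to -2.29, and 5 of 13 passed the threshold, leaving out 1 alternative that removed no cell.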

How the results depend on the processing

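The share ratio of 0.334 kept its direction in every alternative, from 0.141 to 0.527 with 1 library left out (exact permutation p = 0.333 to 0.667), and 0.208 without cells with Ly6c2 or Plac8 UMIs (chosen after seeing the data), 0.435 of cells with a Ptprc UMI and 0.372 of cells under the tumour limit. Among cells with a Ptprc UMI, control library 2 (0.461%, 12 neutrophils) and shRNA library 1 (0.450%, 7 neutrophils) were nearly equal. The replicate numbers were not shown to pair the libraries: with 2 pairs, the replicate differences of the groups correlated at 0.436 over 430 genes in neutrophils and 0.0623 in monocytes. With the replicate block, 5 genes were higher (Ccl4, Cited2, Lyz2, Plac8 and Rsad2) and 13 lower (10 mitochondrial, Gm26870, AY036118 and Trem1) in shRNA neutrophils, and the exact sign permutation of the share gave p = 0.5. Between groups, the genes lower were 9, against 5 with the S100 limit at 100, 2 with at least 2 receptor UMIs and 0 without Ly6c2 or Plac8 cells, and 0 to 12 with 1 library left out. The genes higher were 0, against 3 without Csf1r or Ccr2 cells, 1 with 300 or more genes and no more than 20% mitochondrial UMIs per cell, and 0 to 6 with 1 library left out. Against monocytes, the 290 higher became 175 without a filter and 116 to 351 with 1 library left out. The 338 lower became 172 (S100 limit of 100), 191 (at least 2 receptor UMIs), 210 (the same gene and mitochondrial limits), 613 (relative log expression factors) and 30 to 218 with 1 library left out. For the difference of effects, the 0 higher became 1 (S100 limit of 100), 5 (without Csf1r or Ccr2 cells), 6 (without Ly6c2 or Plac8 cells) and 0 to 6 with 1 library left out. The 1 lower became 0 with at least 2 receptor UMIs, the gene and mitochondrial limits, a monocyte limit of 10, relative log expression factors or no filter, 5 without Ly6c2 or Plac8 cells, 2 in DESeq2, and 0 to 2 with 1 library left out. The cause of these changes was not tested. Of the genes named as called, none reversed, with 49 of 117 values losing the threshold between groups, 21 of 541 against monocytes and 8 of 13 for Ifitm1, and leaving out cells above their library's median UMIs removed no cell. Depth limits the shRNA side most, since 3 UMIs in shRNA library 2 are 500 CPM.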
